A study of Mus musculus with 6 samples.

Results

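The clustered protocadherin genes are a family of cell-surface cadherins that lies in 3 neighbouring clusters on mouse chromosome 18. The members were taken by name: protein-coding GENCODE M21 genes whose symbol starts with Pcdha, Pcdhb or Pcdhg, matched to the deposited tables by Ensembl identifier. This gave 57 of the 53379 genes listed, of which 14 belong to the alpha cluster, 22 to the beta cluster and 21 to the gamma cluster. Pcdhgb8 is annotated as a polymorphic pseudogene and falls outside the rule. The symbol Pcdha11 stands for 2 identifiers, which are kept apart.

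The RNA came from small extracellular vesicles (sEV), membrane-bound particles that cells release, of cultured primary cortical neurons of wild-type (WT) mouse embryos. HypEV, described by the series as vesicles of hypoxic neurons, are the 3 libraries with the treatment label OGD/R, which the labels do not spell out. NorEV, vesicles of normoxic neurons, are the 3 libraries with the label control. The sources used here do not give the age of the embryos, the way vesicles were isolated or whether replicates came from separate cultures. The p-values therefore measure only how far these libraries spread, part of which may be technical.

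Clustered protocadherins bind the same isoform on a neighbouring cell, and the set of isoforms a neuron displays helps it to tell its own dendrites and axons from those of other neurons. In the alpha and gamma clusters each gene has its own large first exon, which codes for the extracellular part, and this exon is spliced to constant exons shared by the whole cluster. Each beta gene is instead a complete gene in a large exon of its own. Most promoters are chosen at random in each neuron, with CTCF and cohesin bringing promoter and enhancer together. The C-type genes at the end of the alpha and gamma clusters are used more constitutively.

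Reads were recovered from the deposited FPKM values (read fragments divided by the length of the gene and by all fragments counted on genes in that library). The library totals implied by these values were 1320916 to 2141611 fragments on genes in HypEV and 1092724 to 1494499 in NorEV. The entry Gm23935, annotated as a miRNA, and 5 entries nearly identical to it took 49.6, 1.97 and 24.5% of these in HypEV 1, 2 and 3 and 4.34, 0.561 and 0.303% in NorEV 1, 2 and 3, which lowers the FPKM of all other genes in HypEV 1 and 3. All 18 neuron markers had reads, with a summed level of 156 to 239 FPKM in HypEV and 186 to 240 FPKM in NorEV. Markers of liver, muscle, blood, pancreas, testis and skin had reads as well (20 genes, 114 to 226 FPKM in HypEV and 176 to 263 FPKM in NorEV). Summed levels were 42.4 to 90.9 FPKM in HypEV and 65.1 to 96.5 FPKM in NorEV for 9 astrocyte markers, and 22.8 to 59.5 FPKM in HypEV and 32.1 to 64.6 FPKM in NorEV for 8 markers of the oligodendrocyte lineage. They were 52.3 to 86.2 FPKM in HypEV and 49.9 to 76.8 FPKM in NorEV for 7 microglial markers, and 45.8 to 118 FPKM in HypEV and 89.9 to 163 FPKM in NorEV for 10 markers of vessels and fibroblasts. No marker of any list was at 0 in all 6 libraries. The part of RNA from other cells in the values below was not tested, and in bulk RNA fewer vesicles of a cell type and less RNA per vesicle cannot be told apart.

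The 3 clusters differ in how much of a gene can be counted for that gene alone. On GRCm38 the alpha cluster spans chr18:36930184-37187661, the beta cluster chr18:37264938-37524479 and the gamma cluster chr18:37661793-37841873, all on the plus strand. Each of the 22 beta genes is annotated as 1 block of exon, and in 20 of them no base lies in an exon of another gene on the same strand. The other two, Pcdhb21 and Pcdhb22, overlap each other and keep at least 90.3% of their exon bases to themselves. In the alpha cluster the share of exon bases outside every other gene was 8.56 to 61.1%, with a median of 46.4%. In the gamma cluster it was 33.2 to 68.5%, with a median of 55.4%. The remaining bases are mostly the constant exons.

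**Figure D1:**
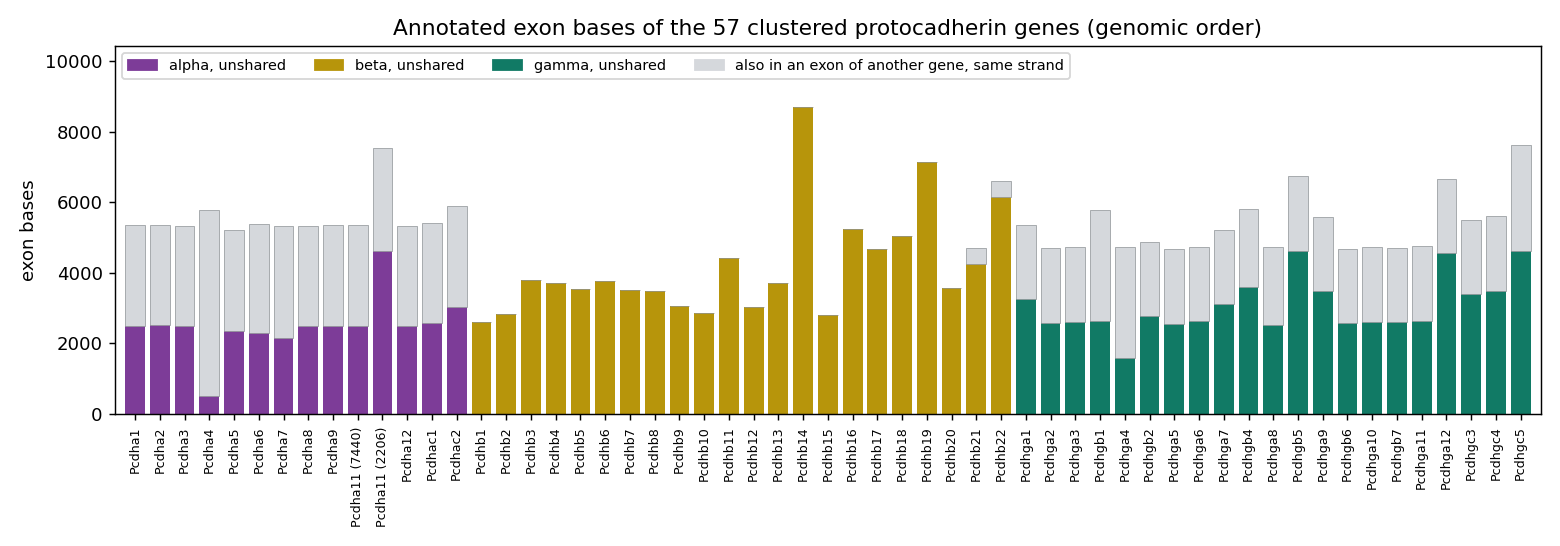
Exon bases of the 57 genes in genomic order (vertical axis, bases; the 2 Pcdha11 entries carry the end of their identifier). The coloured part of each bar lies in no exon of another gene on the same strand and the grey part does: grey is nearly absent from the beta cluster and makes up a large part of each alpha and gamma bar.

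The deposited values followed that sharing. Of 727 genes in the whole table without an exon base outside same-strand exons of other genes, 705 (97.0%) had no read in any of the 6 libraries, against 8.93% of genes with bases of their own. All 4 such genes in the protocadherin region, Gm42416, Gm37013, Gm37388 and Gm38182, were at 0 throughout. Of 447 genes covered wholly by exons of the opposite strand, 67 (15%) were at 0, so reads were told apart by strand. Reads on the constant exons therefore could not be read as reads of any alpha or gamma gene, while the FPKM of these genes still divides by a length that includes them. The length behind the FPKM had a median of 5350 bases for alpha, 3714 for beta and 4723 for gamma genes. The unshared length had a median of 2479.5, 3714 and 2637 bases in the same order.

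Pcdha4 had the fewest unshared bases. Gm42416, a gene model that runs from Pcdha4 into the gamma cluster, and the constant exons cover all but 494 of the 5768 exon bases of Pcdha4. The reads of Pcdha4 numbered 3, 0 and 0 in HypEV 1, 2 and 3 and 0 in each NorEV library. A level for this gene cannot be read from the table, and its 0 values are not a sign that the RNA was absent. Levels below are given both as FPKM and as FPKM with the unshared length in place of the full one, called the unshared level.

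Similarity between first exons also differed. Stretches of 50 bases that occur exactly in another member made up a median of 14.7% of the first exon in alpha genes, 4.26% in beta genes and 0.601% in gamma genes. The highest share was 23.4% in the alpha cluster, 12% in the beta cluster and 39.5% in the gamma cluster, the last in Pcdhga4. These shares also count bases that lie in exons of different members at the same genomic position, as in Pcdhb21 and Pcdhb22. Pcdhga4 has a first exon of 2608 bases but only 1570 unshared bases in all. Much of its share is therefore such overlap, not similarity between places, and the unshared length leaves overlapping bases out. Reads inside stretches found at several places may have been lost or given to a neighbour. That depends on how multiple matches were treated, on which the sources used here say nothing. The median GC content of first exons was 53.1, 46 and 52.6% in alpha, beta and gamma genes.

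Reads per gene were few. The 57 genes held 4211 reads over the 6 libraries, of which 1074 were on alpha, 1997 on beta and 1140 on gamma genes. A gene had a median of 9 reads per library in the alpha cluster, 12 in the beta cluster and 6 in the gamma cluster, and at most 68. No member was at 0 in all libraries. Values of 0 made up 7 of 84 in the alpha cluster, 2 of 132 in the beta cluster and 18 of 126 in the gamma cluster, the beta ones both in HypEV 1. Of the 7 in the alpha cluster, 5 were those of Pcdha4, whose level cannot be read. A count of 0 allows up to 3 reads. In HypEV 1, 2 and 3 all members together took 0.0265, 0.0621 and 0.0397% of the fragments on genes, and in NorEV 1, 2 and 3 they took 0.0458, 0.0559 and 0.0623%. The 95% Wilson intervals, which cover counting error only, were 0.0244 to 0.0288% for the lowest of these and 0.0584 to 0.0664% for the highest. Without the Gm23935 family in the totals the shares were 0.0526, 0.0634 and 0.0525% in HypEV and 0.0478, 0.0562 and 0.0625% in NorEV, and the groups overlapped.

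The beta genes had the highest median FPKM of the 3 clusters in every library. The beta median was 1.03, 2.94 and 1.44 FPKM in HypEV 1, 2 and 3 and 2.12, 2.62 and 2.78 FPKM in NorEV 1, 2 and 3 (means 1.81 ± 1.0 in HypEV and 2.51 ± 0.343 in NorEV, SD, n = 3 each). The alpha median was 0.917, 1.42 and 0.922 FPKM in HypEV and 0.943, 1.46 and 1.5 FPKM in NorEV (1.09 ± 0.290 and 1.30 ± 0.310 in the same order, SD, n = 3 each). The gamma median was 0.700, 1.16 and 0.481 FPKM in HypEV and 0.774, 1.06 and 1.27 FPKM in NorEV (0.781 ± 0.349 and 1.04 ± 0.250, SD, n = 3 each). In each cluster the 2 groups overlapped, with HypEV 2 above at least 1 NorEV library. The alpha median stood at 0.444 to 0.886 of the beta median over the 6 libraries and the gamma median at 0.333 to 0.677.

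Per unshared length the order was different. The unshared median of alpha genes was 2.25, 2.67 and 2.13 in HypEV 1, 2 and 3 and 2.03, 3.14 and 3.38 in NorEV 1, 2 and 3. That of beta genes was 1.03, 3.05 and 1.44 in HypEV and 2.12, 2.71 and 2.78 in NorEV. That of gamma genes was 1.10, 2.20 and 0.655 in HypEV and 1.41, 1.56 and 2.41 in NorEV. Alpha was above beta in 4 of the 6 libraries and beta above alpha in HypEV 2 and NorEV 1, so these clusters had no fixed order on this scale. Summed over each cluster, the reads per unshared kilobase of alpha genes were 1.12 to 1.78 times those of beta genes in all 6 libraries. For gamma genes the ratio to beta was 0.483 to 0.962 and the ratio to alpha 0.336 to 0.848. Gamma sums were thus below beta sums in every library, by less than the FPKM medians were. The alpha sum weighs a few genes strongly, since Pcdha2, Pcdha5, Pcdhac1 and Pcdhac2 held 113, 170, 187 and 197 of the 1074 alpha reads.

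**Figure D2:**
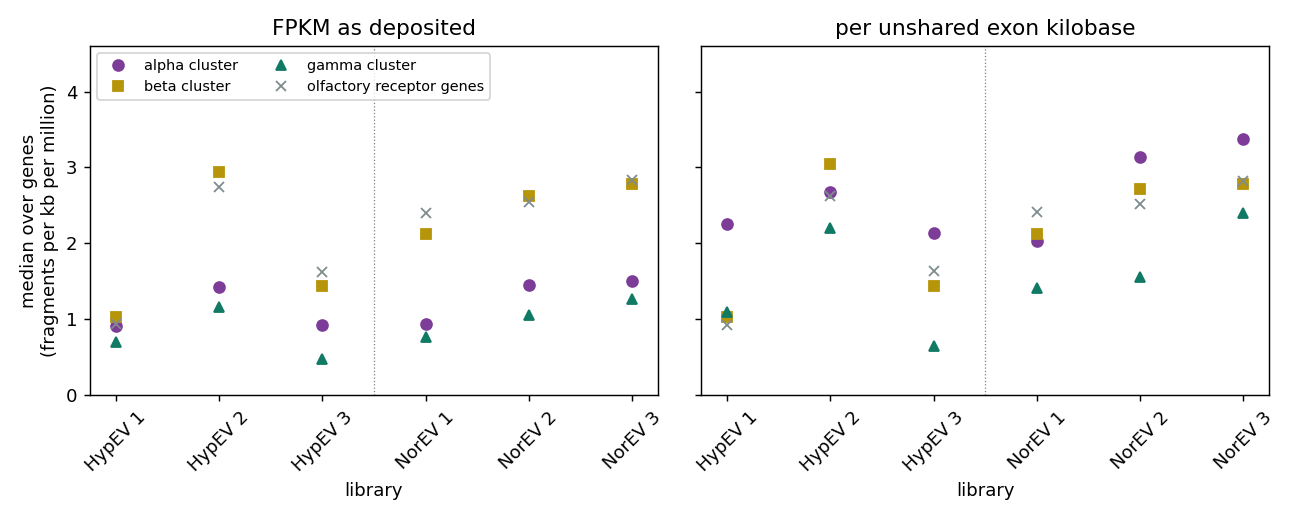
Median level of each cluster and of olfactory receptor genes in each library (vertical axis, on the FPKM scale), as deposited FPKM (left) and per unshared exon length (right). In FPKM the beta squares lie above alpha and gamma in all 6 libraries; per unshared length alpha lies above beta in 4 libraries and gamma is the lowest cluster in 5.

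All 3 clusters were low within these libraries. The median over all 21865 protein-coding genes was 3.53, 8.23 and 5.05 FPKM in HypEV 1, 2 and 3 and 6.72, 7.24 and 8.21 FPKM in NorEV 1, 2 and 3, and the beta median was 0.286 to 0.362 of it. Olfactory receptor genes, which also code in 1 main exon and are characteristic of the nose, served as a comparison. Their median FPKM was 0.265 to 0.356 of that of all protein-coding genes, a range that overlaps the beta one. The 12 protocadherins outside the clusters, which lie elsewhere in the genome, had a median of 2.42, 5.34 and 2.39 FPKM in HypEV and 2.67, 4.54 and 5.26 FPKM in NorEV, and the 18 neuron markers 5.39, 9.45 and 9.14 FPKM in HypEV and 7.99, 8.53 and 10.06 FPKM in NorEV. In FPKM both lists lay above each cluster median in every library. Per unshared length the alpha median was 2.25 in HypEV 1 and 2.13 in HypEV 3, above the 1.87 and 1.99 of the protocadherins outside the clusters on the same scale, and below theirs in the other 4 libraries.

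Single members were set beside the olfactory receptor genes per unshared length. In all 6 libraries 10 of the 57 members lay above the olfactory median: Pcdha2, Pcdha5, Pcdhac1 and Pcdhac2 in the alpha cluster, Pcdhb12, Pcdhb16, Pcdhb17 and Pcdhb22 in the beta cluster, and Pcdhga1 and Pcdhgc5 in the gamma cluster. Another 7 members, 2 beta and 5 gamma, lay below it in every library. None lay above the 90th percentile of the olfactory genes in 5 or more libraries. What part of the members' reads is background of the libraries was not tested.

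In the beta cluster the highest mean level belonged to Pcdhb16 (chr18:37477814-37483038). It had 4.38, 4.10 and 4.49 FPKM in HypEV 1, 2 and 3 and 8.93, 4.33 and 4.99 FPKM in NorEV 1, 2 and 3, from 31 to 51 reads each. HypEV libraries were close together, NorEV 1 stood high and the groups overlapped. Pcdhb1 (chr18:37264938-37267525), at the start of the cluster, had 0.902, 5.61 and 10.2 FPKM in HypEV and 6.01, 4.10 and 3.88 FPKM in NorEV. Its lowest and its highest value were both in HypEV. Pcdhb17 had 2.10, 4.90 and 3.09 FPKM in HypEV and 2.75, 10.3 and 5.31 FPKM in NorEV. Pcdhb2 had 0.498, 7.62 and 2.96 FPKM in HypEV and 1.30, 3.52 and 8.80 FPKM in NorEV, so that libraries of 1 group differed more than the group means (3.69 ± 3.62 in HypEV and 4.54 ± 3.85 in NorEV, SD, n = 3 each).

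Pcdhb4, Pcdhb8 and Pcdhb10 had their lowest values in HypEV 1. Pcdhb8 had 0.280, 6.85 and 3.18 FPKM in HypEV 1, 2 and 3 and 1.92, 3.61 and 1.2 FPKM in NorEV, from 2 reads in HypEV 1 and 33 in HypEV 2. Pcdhb10 had 0.328, 5.82 and 1.06 FPKM in HypEV and 3.21, 5.71 and 3.52 FPKM in NorEV. Pcdhb4 had 0, 2.42 and 0.814 FPKM in HypEV and 2.46, 3.62 and 1.08 FPKM in NorEV. In these genes HypEV 2 lay inside or above the NorEV range. Pcdhb6 had 1.5, 4.08 and 1.22 FPKM in HypEV and 1.72, 1.71 and 1.61 FPKM in NorEV, and its SD in NorEV, 0.0567 FPKM, was the smallest of the beta genes.

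**Figure D3:**
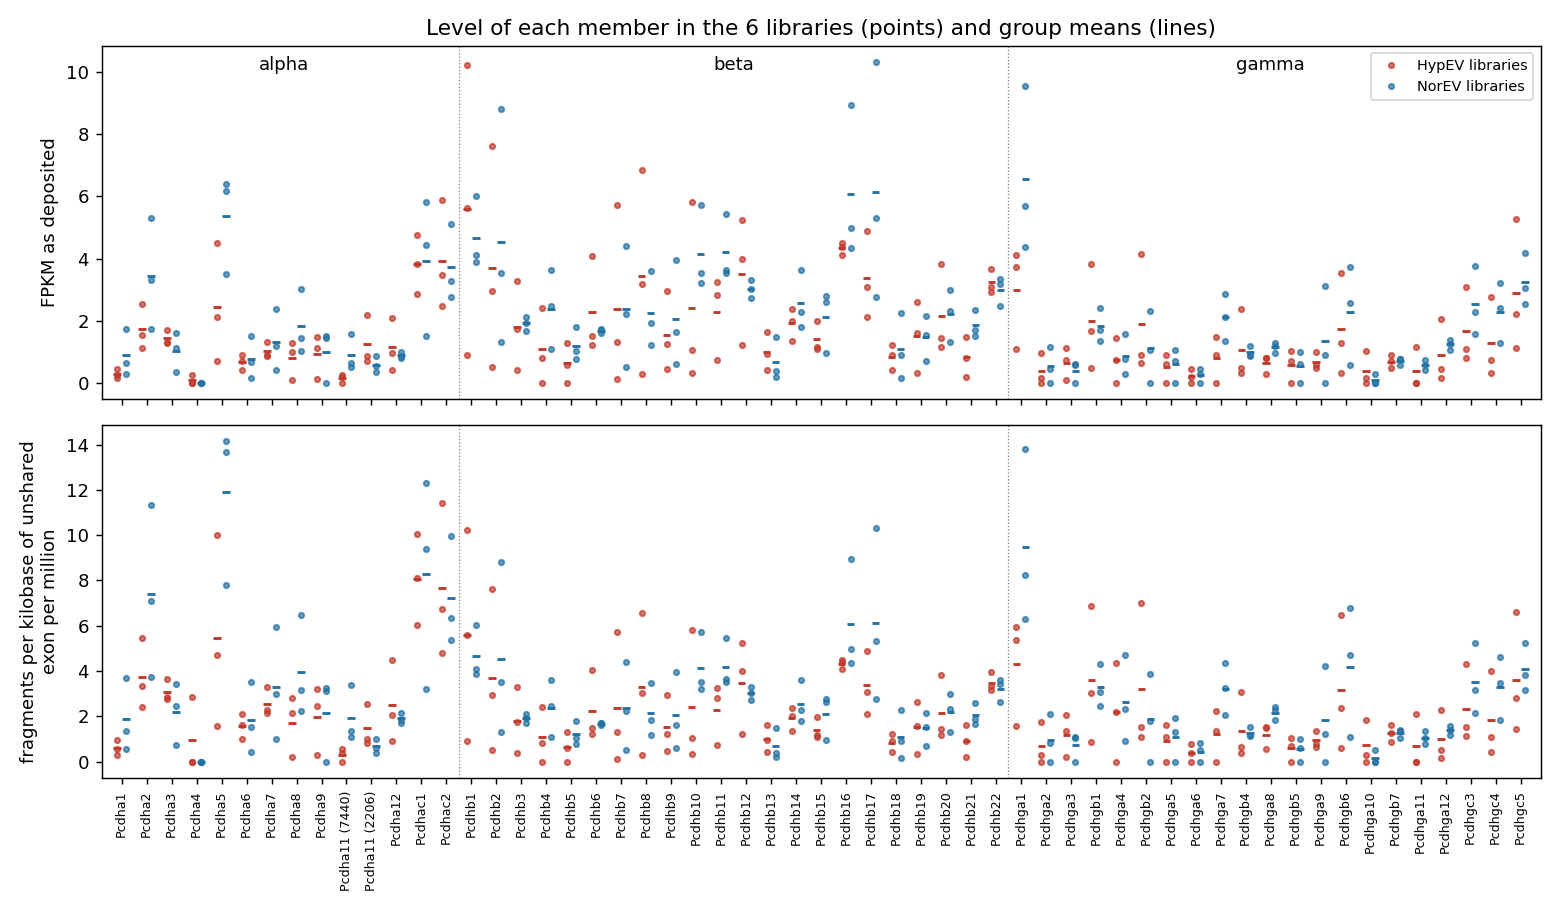
Level of every member in the 6 libraries (points; HypEV red, NorEV blue) with group means (lines), as deposited FPKM (upper panel) and per kilobase of unshared exon (lower panel), in genomic order. Points of the 2 groups overlap for most members, beta genes reach 10.3 FPKM in NorEV 2 (Pcdhb17), and Pcdha5, Pcdhac1, Pcdhac2 and Pcdhga1 stand out in the lower panel.

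In the alpha cluster the reads were concentrated on Pcdha2, Pcdha5 and the C-type genes. Pcdha5 (chr18:36960440-37187657) had 0.718, 2.13 and 4.51 FPKM in HypEV 1, 2 and 3 and 3.52, 6.39 and 6.17 FPKM in NorEV 1, 2 and 3, and the groups overlapped through HypEV 3 and NorEV 1. Pcdha2 had 1.13, 1.55 and 2.54 FPKM in HypEV and 5.29, 3.30 and 1.75 FPKM in NorEV. The highest HypEV library lay above the lowest NorEV one. Pcdha8 had 0.0875, 1.30 and 0.993 FPKM in HypEV and 1.03, 1.46 and 3.01 FPKM in NorEV, the first from 1 read. Pcdha3 had 1.31, 1.69 and 1.28 FPKM in HypEV and 0.343, 1.59 and 1.13 FPKM in NorEV. Pcdha12 had 0.963, 2.07 and 0.426 FPKM in HypEV and 0.858, 0.796 and 1.0 FPKM in NorEV, so that all NorEV values lay inside the HypEV range.

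The C-type genes Pcdhac1 and Pcdhac2 end the alpha cluster. Pcdhac2, known in mouse as the isoform that serotonergic neurons use to space their axons, had 2.46, 5.87 and 3.47 FPKM in HypEV 1, 2 and 3 and 3.26, 2.76 and 5.11 FPKM in NorEV 1, 2 and 3. Pcdhac1 had 2.84, 3.83 and 4.75 FPKM in HypEV and 1.52, 4.44 and 5.80 FPKM in NorEV. Pcdhac1 averaged 3.81 ± 0.953 FPKM in HypEV and 3.92 ± 2.19 FPKM in NorEV (SD, n = 3 each), and for both genes the libraries of the 2 groups overlapped. Summed per unshared kilobase, the C-type pair stood at 5.35, 9.90 and 8.27 in HypEV and 4.91, 7.22 and 11 in NorEV. The other 12 alpha genes stood at 1.72, 2.43 and 2.35 in HypEV and 2.72, 3.34 and 3.73 in NorEV. The C-type pair was therefore 3.10, 4.07 and 3.51 times as high as the other genes in HypEV 1, 2 and 3 and 1.81, 2.16 and 2.96 times as high in NorEV 1, 2 and 3. These ratios, which do not depend on the library totals, did not overlap between the groups. As deposited the C-type sums did overlap (7.84 ± 2.31 in HypEV and 7.72 ± 3.08 in NorEV, SD, n = 3 each). Those of the other 12 genes did not (2.17 ± 0.390 and 3.26 ± 0.507 in the same order). Unlike the ratios, both sums depend on the library totals and were not computed with the Gm23935 family left out. In which of the 2 sets the ratios separated therefore cannot be told from these sums. Among the other 12 genes, Pcdha5 alone had 8, 16 and 31 reads in HypEV and 20, 47 and 48 in NorEV. The ratios thus lean strongly on Pcdha5, and no share over all genes was computed for such a ratio. No test was made of the ratios, because the members were chosen with earlier results of these data known.

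The gamma cluster ends with 3 C-type genes. Pcdhgc3, which in mouse cortex promotes dendrite branching, had 1.10, 3.10 and 0.808 FPKM in HypEV 1, 2 and 3 and 1.56, 3.77 and 2.28 FPKM in NorEV 1, 2 and 3. Pcdhgc4, the isoform on which the survival of mouse interneurons depends, had 0.744, 2.75 and 0.301 FPKM in HypEV and 1.28, 2.39 and 3.20 FPKM in NorEV. Pcdhgc5, which binds a GABA receptor subunit, had 1.13, 5.27 and 2.23 FPKM in HypEV and 2.53, 3.06 and 4.17 FPKM in NorEV. In all 3 genes HypEV 2 was the highest HypEV library and lay above at least 1 NorEV library. Per unshared kilobase the 3 genes together stood at 1.34, 5.13 and 1.59 in HypEV and 2.47, 4.14 and 4.44 in NorEV, against 0.956, 2.64 and 1.0 in HypEV and 1.70, 2.02 and 2.49 in NorEV for the other 18 gamma genes. This C-type ratio was 1.41, 1.95 and 1.58 in HypEV and 1.46, 2.04 and 1.78 in NorEV, and here the groups overlapped.

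**Figure D4:**
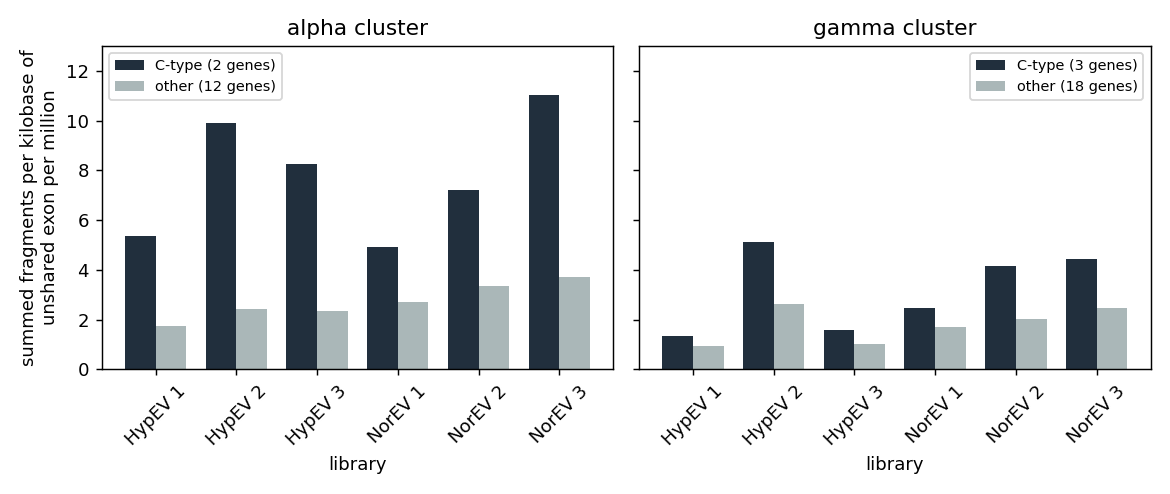
Summed reads per kilobase of unshared exon, on the FPKM scale, of the C-type genes (dark bars) and the other genes (light bars) of the alpha cluster (left) and the gamma cluster (right) in each library. The dark bar is higher in every library; in the alpha cluster it is 3.10 to 4.07 times the light bar in HypEV and 1.81 to 2.96 times in NorEV, and in the gamma cluster 1.41 to 1.95 times in HypEV and 1.46 to 2.04 times in NorEV.

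Among the other gamma genes, Pcdhga1 (chr18:37661793-37841873) was highest. It had 1.09, 4.13 and 3.71 FPKM in HypEV 1, 2 and 3 and 9.56, 4.37 and 5.70 FPKM in NorEV 1, 2 and 3. All HypEV libraries lay below all NorEV libraries as deposited, but with the Gm23935 family out of the totals HypEV 3, at 4.91 FPKM, lay above NorEV 2, at 4.40 FPKM. Pcdhgb6 had 1.30, 3.54 and 0.323 FPKM in HypEV and 0.586, 2.57 and 3.71 FPKM in NorEV. Pcdhgb1 had 1.68, 3.81 and 0.481 FPKM in HypEV and 1.36, 2.40 and 1.70 FPKM in NorEV. Pcdhgb2 had 0.902, 4.16 and 0.650 FPKM in HypEV and 0, 1.06 and 2.30 FPKM in NorEV. In these Pcdhgb genes HypEV 2 stood well above the other HypEV libraries, and the groups overlapped. Summed per unshared kilobase, the 6 Pcdhgb genes stood at 1.39, 3.95 and 0.606 in HypEV and 0.976, 2.08 and 2.53 in NorEV, and the 12 Pcdhga genes at 0.714, 1.91 and 1.22 in HypEV and 2.10, 2.0 and 2.46 in NorEV. The Pcdhga sums of HypEV all lay below those of NorEV and the Pcdhgb sums overlapped, also with the Gm23935 family out of the totals, where the Pcdhga sums were 1.42 to 1.95 in HypEV and 2.01 to 2.47 in NorEV. The Pcdhga sums lean strongly on Pcdhga1, which alone had 11, 28 and 23 reads in HypEV and 49, 29 and 40 in NorEV. Of all single genes tested, 10.8% had all HypEV libraries below as deposited and 6.27% with the family out of the totals.

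Which genes were high within a cluster was similar in the 2 groups. Across genes, the group means of HypEV and NorEV had a Spearman rho of 0.824 over the 14 alpha genes, 0.828 over the 22 beta genes and 0.871 over the 21 gamma genes. This is a description, since genes are not replicates and share length and sequence between the groups. The spread between libraries was larger than counting error for most members. Given each library's total for the cluster, the variance of reads over the 6 libraries was a median of 3.07 times the counting variance for alpha, 3.61 times for beta and 2.04 times for gamma genes.

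HypEV and NorEV were compared with limma on log2(FPKM + 1) over the 44125 genes whose mean over libraries reached 1 FPKM. On this scale a fold change understates the change of low genes. The filter kept 38 members, namely 8 alpha, 19 beta and 11 gamma genes, and 19 fell under it and were not tested. Of the 38 members tested, 0 passed a Benjamini-Hochberg adjusted p of 0.05 in limma, where 0.0159% of all genes tested did, and 0 had an unadjusted p under 0.05, where 6.76% of all genes did. The smallest adjusted p was 0.754. The standard error of the log2 fold change had a median of 0.70 over the members, with a range of 0.50 to 0.88, so that differences of a few-fold could not be told from the spread. A p that misses the threshold does not show that values did not differ.

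limma-voom on the recovered reads, which weights each value by its count, also called 0 of the 38 members, where it called 0.546% of all genes tested. Its unadjusted p was under 0.05 for 2 members, where it was for 11.7% of all genes. These were Pcdha5, with a log2 fold change of -1.62 ± 0.67 (SE, limma-voom, adjusted p 0.305), and Pcdhga1, with -1.35 ± 0.64 (SE, limma-voom, adjusted p 0.389). When the test and the totals excluded the Gm23935 family, a setting chosen after seeing the data, limma-voom called 0 members, where it called 0.142% of all genes. No member then had an unadjusted p under 0.05, and the smallest adjusted p was 0.741.

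Most log2 fold changes lay below 0, as they did for the table as a whole. In limma 29 of the 38 members were lower and 9 higher in HypEV, where 74.9% of all genes tested were lower, and with each library centred on its median 12 were lower and 26 higher. The median log2 fold change was -0.04 over the alpha genes (4 higher, 4 lower), -0.23 over the beta genes (4 higher, 15 lower) and -0.32 over the gamma genes (1 higher, 10 lower), beside -0.44 over all genes tested. With each library centred on its median, that of all genes was 0.01 and those of the clusters turned positive, at 0.41 for alpha, 0.22 for beta and 0.13 for gamma. With the Gm23935 family taken out of the totals the median was 0.32 for alpha, 0.02 for beta and -0.13 for gamma, beside -0.12 for all genes. As deposited but with a pseudocount of 0.1, the medians were -0.02 for alpha, -0.41 for beta and -0.57 for gamma, beside -0.58 for all genes. In limma-voom they were -0.03, -0.47 and -0.67 in the same order, beside -0.61. How far a cluster stood above all genes thus depended on the scale, and in limma-voom gamma stood below. With the family out of the totals 43 members passed the filter, 20 of them lower and 23 higher. In limma as deposited 26 of the 38 members lay above the median of all genes, of which 5 were alpha, 14 beta and 7 gamma genes. Among cell type markers the median was -0.18 for neurons, -0.13 for microglia, -0.43 for astrocytes, -0.44 for the oligodendrocyte lineage and -0.67 for vessels and fibroblasts, and its part in the members' values was not tested.

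**Figure D5:**
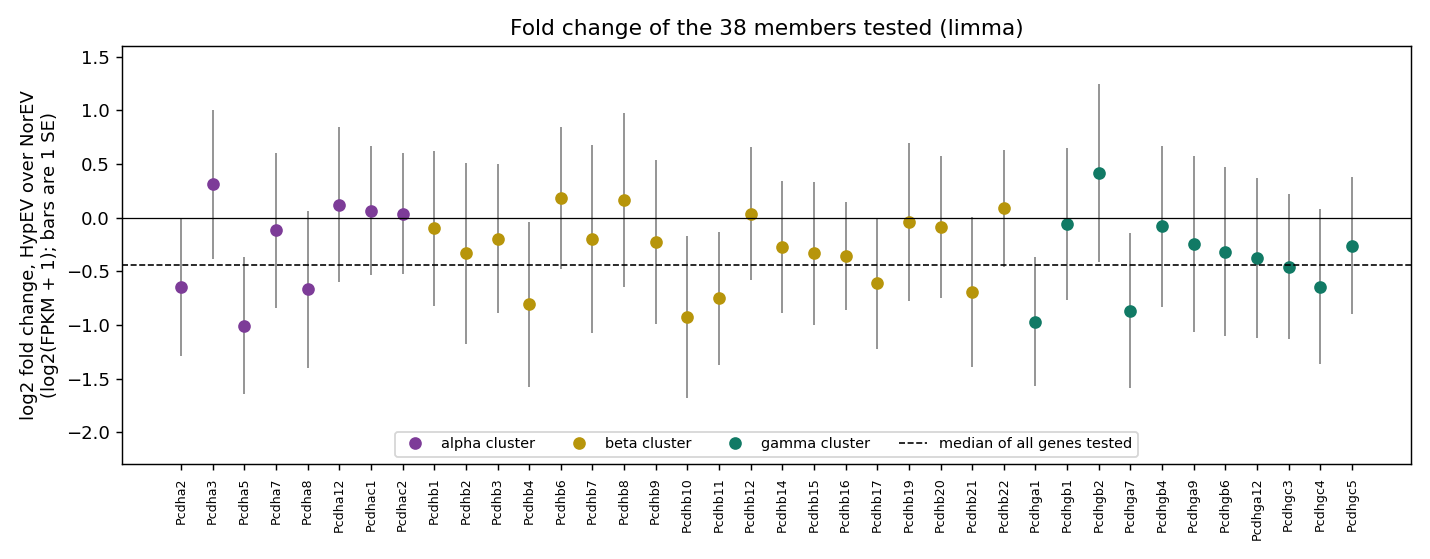
Log2 fold change of HypEV over NorEV with 1 SE for the 38 members tested by limma on log2(FPKM + 1), in genomic order. None passed the threshold. The dashed line is the median of all genes tested (-0.44), with 26 members above it. With each library centred on its median the line moves to 0.01 and the cluster medians turn positive. This scale understates the changes of low genes such as these.

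The members with the smallest p were all lower in HypEV as deposited, without passing. Pcdhga1 had a log2 fold change of -0.97 ± 0.60 (SE, limma, adjusted p 0.754) and Pcdha5 one of -1.01 ± 0.64 (limma, adjusted p 0.758). Pcdhb10 had -0.92 ± 0.75, Pcdhb11 -0.75 ± 0.62 and Pcdhga7 -0.87 ± 0.72 (limma, adjusted p 0.798 for each). Without HypEV 1, the library in which the Gm23935 family took most, these were -0.56 for Pcdhga1, -0.58 for Pcdha5, -0.42 for Pcdhb10, -0.35 for Pcdhb11 and -0.96 for Pcdhga7. Pcdhb11 had 0.740, 2.82 and 3.25 FPKM in HypEV 1, 2 and 3 and 3.52, 5.44 and 3.63 FPKM in NorEV, and Pcdhga7 had 0.888, 1.46 and 0 FPKM in HypEV and 1.35, 2.84 and 2.12 FPKM in NorEV. The Pcdhb11 groups did not overlap as deposited, but with the family out of the totals HypEV 3, at 4.31 FPKM, lay above NorEV 1 and 3, at 3.68 and 3.65 FPKM. The groups of Pcdhga7 overlapped through HypEV 2 and NorEV 1.

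Counted by overlap, 3 of the 38 members tested had all HypEV libraries below all NorEV libraries in FPKM, where 10.8% of all genes tested did. These were Pcdhb11, Pcdhb21 and Pcdhga1. Of the 19 members not tested, Pcdhga8 and the Pcdha11 entry ENSMUSG00000007440 had the same order of libraries. No tested member had all HypEV libraries above, where 1.1% of all genes did. With the family out of the totals, an order looked at after seeing the data, 1 tested member had all HypEV libraries below, namely Pcdhb21, where 6.27% of all genes did. Another 1, Pcdha3, had all HypEV libraries above, where 4.03% did. Pcdhga8 then overlapped, and the Pcdha11 entry did not. The highest log2 fold changes were those of Pcdhgb2 (0.42 ± 0.83), Pcdha3 (0.31 ± 0.69), Pcdhb6 (0.18 ± 0.66) and Pcdhb8 (0.17 ± 0.81), each smaller than its SE, with adjusted p of 0.903 to 0.965 in limma. Those of the C-type genes were 0.06 ± 0.60 for Pcdhac1, 0.04 ± 0.57 for Pcdhac2, -0.46 ± 0.68 for Pcdhgc3, -0.64 ± 0.73 for Pcdhgc4 and -0.26 ± 0.64 for Pcdhgc5.

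Genes that act with the clusters were read from the same fit. Of 19 regulators of protocadherin promoter choice and silencing, 17 were lower and 2 higher in HypEV as deposited, but 5 lower and 14 higher after centring, and 0 passed the threshold or had an unadjusted p under 0.05 in limma. Mau2, which loads cohesin on DNA, had 3.13, 9.53 and 4.23 FPKM in HypEV 1, 2 and 3 and 10.1, 11.9 and 13.8 FPKM in NorEV 1, 2 and 3 (log2 fold change -1.07 ± 0.51, limma, adjusted p 0.720). Rad21, a cohesin subunit, had 16.5, 22.0 and 20.9 FPKM in HypEV and 48.3, 28.3 and 27.2 FPKM in NorEV (-0.74 ± 0.40, limma, adjusted p 0.738). Both genes were named for the smallest p of their list. In each, all HypEV libraries lay below all NorEV libraries as deposited, where 10.8% of all genes tested did. With the Gm23935 family out of the totals this held for Mau2, where 6.27% of all genes had this order. Rad21 then had 32.8, 22.5 and 27.6 FPKM in HypEV and 50.5, 28.4 and 27.3 FPKM in NorEV, which overlap. The median log2 fold change of the regulators was -0.32 as deposited and 0.13 after centring.

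Of 24 genes for binding partners, cleavage and signalling, 21 were lower and 3 higher in HypEV as deposited, but 13 lower and 11 higher after centring. Of these 24 genes 0 passed, and 2 had an unadjusted p under 0.05 in limma, both lower, where 6.76% of all genes did. Ptk2b, a kinase that alpha and gamma protocadherins restrain, had 9.72, 31.2 and 5.82 FPKM in HypEV 1, 2 and 3 and 29.5, 34.9 and 38.6 FPKM in NorEV 1, 2 and 3 (-1.40 ± 0.58, limma, adjusted p 0.720), and the groups overlapped. Psen2, a catalytic subunit of the gamma-secretase that cleaves protocadherins, had 17.1, 32.5 and 39.7 FPKM in HypEV and 53.5, 73.6 and 49.0 FPKM in NorEV (-1.01 ± 0.44, limma, adjusted p 0.720). As deposited all its HypEV libraries lay below all NorEV libraries, where 10.8% of all genes tested had that order. With the family out of the totals it had 33.9, 33.2 and 52.6 FPKM in HypEV and 55.9, 74.0 and 49.2 FPKM in NorEV, which overlap. The median of this list was -0.52 as deposited and -0.07 after centring.

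Among related cadherins, all 12 protocadherins outside the clusters were lower in HypEV as deposited, but 8 lower and 4 higher after centring, with medians of -0.60 and -0.15, and 0 passed or had an unadjusted p under 0.05 in limma. Pcdh15, known from the tip links of hair cells, had -0.75 ± 0.48 and Pcdh20 had -0.80 ± 0.54 (limma, adjusted p 0.757 and 0.773). Of 27 classical and large cadherins 24 were lower and 3 higher as deposited, but 15 lower and 12 higher after centring, with medians of -0.50 and -0.05, and again 0 passed or had an unadjusted p under 0.05 in limma. Celsr3, needed for the growth of long axon tracts, had -0.89 ± 0.45, and Cdh9, a synaptic cadherin, had -1.24 ± 0.63 (limma, adjusted p 0.726 for each). The medians of these lists, like those of the clusters, stand beside -0.44 over all genes tested as deposited and 0.01 after centring.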

How the data were processed

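The authors deposited 1 table of FPKM values per library, with 53379 Ensembl gene identifiers. The labels' protocols name Trizol for the RNA and the Epi mini longRNA-seq kit (Epibiotek) for the libraries, and the file names mention HTSeq. The sources used here name no aligner, genome build or annotation. Of the identifiers, 53274 were found in GENCODE M21 (GRCm38) and 105 were not. Divided by what 1 read is worth on the longest transcript, 96.0% of values above 0 were whole reads within 0.01 reads, and so were all values of the 57 members. Unshared exon bases were computed from the GENCODE M21 exons of the same strand.

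HypEV and NorEV were compared with limma 3.58.1 (R 4.3.3, eBayes with trend, two-sided, no covariates) on log2(FPKM + 1) for genes whose mean reached 1 FPKM, adjusted over all genes tested at 0.05. limma-voom on recovered reads was an alternative. Entries at least 90% identical to Gm23935 over 80% of its length (blastn 2.17.0) form the Gm23935 family. Tables were handled in Python 3.11.15 (pandas 2.3.3, numpy 2.4.6, scipy 1.17.1), and figures drawn with matplotlib 3.10.9. The fit was tested on simulated data.

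The members and the lists were chosen with earlier results of these data known. Named with values are the C-type genes, the 4 highest of each cluster by mean FPKM, the 2 highest and 2 lowest log2 fold changes of each cluster, and the 5 smallest p. Of each other list the 2 genes of smallest p are named. Genes shown beside the olfactory receptor genes, the non-overlapping genes and Pcdha4 were singled out after their values were seen. Sequences of the members are not shown.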

Additional observations from a re-analysis of the deposited data

How the results depend on the processing

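No clustered protocadherin gene passed the threshold under any of the alternatives, which changed the pseudocount, the filter, the scaling, the trend, the replicate block, the libraries or the unit. The filter at a mean of at least 5 FPKM kept only Pcdhb1 and Pcdhb16 of the members, so it is no check for the others. Over all genes the main count of 7 became 0 with a pseudocount of 0.1, without a filter, with each library centred on its median, without a trend and with a replicate block, and 231 with limma-voom and 60 with limma-voom on totals without the Gm23935 family, a setting chosen after seeing the data. It was 0 to 71 when 1 library was left out, with 71 without HypEV 2. The replicate numbers were not taken to pair the libraries, since same-numbered libraries deviated together with correlations of 0.0446, 0.1017 and -0.0582. In this balanced design a block cannot move a fold change, only its error. Centring moved the median log2 fold change to 0.41 for alpha, 0.22 for beta and 0.0088 for all genes; rescaling without the family moved alpha to 0.32 and the added limma-voom setting moved it to 0.37. The mean of the alpha medians became 2.35 in HypEV and 2.85 in NorEV per unshared length and 1.41 and 1.83 FPKM as a mean over genes, and 1.5 FPKM in HypEV after rescaling. The gamma ones became 1.32 in HypEV and 1.79 in NorEV per unshared length, and 1.49 FPKM in NorEV as a mean over genes.

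Of 261 log2 fold changes of named members under the alternatives that can move them, 35 in 11 members changed sign, none past the threshold. The filters, the trend and the block leave a fold change as it is. Centring gave 0.35 for Pcdhb1, 0.12 for Pcdhb2, 0.092 for Pcdhb16, 0.39 for Pcdhgb1, 0.13 for Pcdhgb6 and 0.19 for Pcdhgc5. Rescaling gave 0.19 for Pcdhb1, 0.023 for Pcdhb16, 0.21 for Pcdhgb1 and 0.027 for Pcdhgc5. The added limma-voom setting gave 0.20 for Pcdhb1, 0.044 for Pcdhb16, 0.29 for Pcdhgb1 and 0.056 for Pcdhgc5. limma-voom gave -0.023 for Pcdhac2 and -0.43 for Pcdhb8, and a pseudocount of 0.1 gave -0.058 for Pcdhb8. With 1 library left out the range was -0.66 to 0.63 for Pcdhb1, -0.94 to 0.32 for Pcdhb2, -0.19 to 0.41 for Pcdhb6, -0.42 to 0.89 for Pcdhb8, -0.36 to 0.36 for Pcdhac1 and -0.23 to 0.27 for Pcdhac2. It was -0.48 to 0.37 for Pcdhgb1, -0.044 to 0.82 for Pcdhgb2, -0.78 to 0.11 for Pcdhgb6 and -0.68 to 0.10 for Pcdhgc5. The alpha median was 0.20 without NorEV 3. The cause of these changes was not tested. The filter on mean FPKM left 19 members out, and 14 with the family out of the totals; without a filter none passed either.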

Other observations

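Other genes between the first alpha and the last gamma gene were looked at after their values were seen. The non-coding RNA 4930517L18Rik (chr18:37618906-37619766), which lies between the beta and gamma clusters, had 39, 52 and 32 reads in HypEV 1, 2 and 3 and 16 in each NorEV library. In FPKM as deposited all HypEV libraries lay above all NorEV libraries, where 1.1% of all genes tested did. With the Gm23935 family out of the totals it had 74.9, 76.1 and 66.5 FPKM in HypEV and 31.8, 23.6 and 22.3 FPKM in NorEV. This kept the order, which 4.03% of all genes then had. The log2 fold change of 4930517L18Rik as deposited was 1.03 ± 0.40 (SE, limma, adjusted p 0.720). It was not the only separated gene of the region. The antisense entry Gm37753 also had all HypEV libraries above as deposited, from 6, 7 and 1 reads in HypEV and 0, 1 and 0 in NorEV. The pseudogene Gm18150 had all HypEV libraries below, where 10.8% of all genes did, from 0, 0 and 1 reads in HypEV and 2, 6 and 3 in NorEV. The pseudogene Pcdhgb8 (chr18:37761801-37841870) had 2, 23 and 1 reads in HypEV 1, 2 and 3 and 35, 31 and 19 in NorEV 1, 2 and 3. Its groups overlapped through HypEV 2 and NorEV 3, and its log2 fold change was -1.59 ± 0.76 (SE, limma, adjusted p 0.720). Taf7, a protein-coding gene between the beta and gamma clusters that codes for a subunit of the general transcription factor TFIID, had 17, 14 and 20 reads in HypEV and 8, 13 and 9 reads in NorEV (log2 fold change 0.37 ± 0.58, limma, adjusted p 0.870). None of these passed the threshold.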
